A study of Mus musculus with 5 samples.

Results

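Annexins, S100 proteins and caveolins work at the inner face of the plasma membrane, where it meets the actin cytoskeleton. The genes described here are the annexins Anxa1, Anxa2, Anxa3, Anxa5 and Anxa6, the S100 genes S100a6, S100a10 and S100a11, and the caveolins Cav1 and Cav2. They were taken by name, and all 10 were found among 55147 gene symbols. Total RNA was sequenced from E14Tg2a cells, a mouse embryonic stem cell (ESC) line grown on gelatin in medium with serum and LIF and given no treatment. There were 3 WT samples of the parent cells and 2 C3G KO samples labelled C3G-/-. C3G, encoded by Rapgef1, is an exchange factor that activates Rap GTPases, and in the KO cells a puromycin cassette carried by a targeting vector replaced exons near the 5' end of the gene. The KO cells were grown from picked colonies, and the labels do not say which clone each KO sample came from. No sample of the vector control cells was analysed here. The study calls the samples independent, but the labels name no separate cultures, so p-values measure the spread between these 5 samples, which may be partly technical.

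Annexins bind acidic phospholipids of membranes when calcium rises, and take part in membrane repair, exocytosis and the linking of membrane to actin. S100 proteins are small EF-hand proteins that work as dimers and bind target proteins, often in response to calcium. S100A10 is the exception that does not respond to calcium, and is the partner of annexin A2 in a heterotetramer. Caveolins form the coat of caveolae, small pits of the plasma membrane, together with cavins.

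Levels are in TPM, which set the reads of a transcript against its length and the library total, and were summed over the transcripts of each gene. Read numbers cannot be had from TPM, so neither the sequencing depth nor the counting error is known. Small non-coding RNAs held between 62.9% and 67.2% of the TPM in WT and 69.6% and 77.8% in C3G KO samples, and since TPM share a fixed total, this left less of it to other genes. The comparison was therefore made on TPM divided by a median-of-ratios factor per sample ("scaled TPM"), and the values as deposited are given beside it. The factors were 1.34, 1.22 and 1.104 in WT 1 to 3 and 0.619 and 0.906 in C3G KO 1 and 2. Log2 fold changes come from two-sided limma fits of log2(TPM + 1), and p was adjusted by Benjamini-Hochberg over the 12518 genes that reached 1 TPM in at least 2 samples. Rapgef1 itself was at 11.56, 10.31 and 9.64 TPM in WT samples, against 3.92 and 5.55 TPM in C3G KO samples, and its log2 fold change was -0.41 on scaled TPM (limma adjusted p = 0.00444). After correcting for length and GC content it was -0.11 and did not pass (limma adjusted p = 0.239). The level of the gene also counts exons outside the deleted ones. With primers in the deleted exons the study detected no transcript, and with primers in C-terminal exons it did. It saw neither full-length nor truncated C3G protein by western blot. ES cell identity was checked with 12 markers, all at or above the minimum, of which Klf4 fell, Dppa5a rose and 10 did not pass on scaled TPM. Corrected for length and GC content, Klf4 did not pass (limma adjusted p = 0.0855), and Dppa5a, Esrrb and Tfcp2l1 were higher. By qPCR and western blot the study found Klf4 and Esrrb higher in the KO cells, the opposite direction to Klf4 here. In its own RNA-seq comparison many pluripotency genes did not differ significantly. The summed level of the 12 was between 1741 and 2152 scaled TPM in WT and 2935 and 2630 in KO, of which Dppa5a alone averaged 1147 in WT and 1868 in KO. As deposited the sums overlapped, with between 2324 and 2436 TPM in WT and 1816 and 2383 in KO.

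Both C3G KO samples had lower levels of each of the 10 genes than any WT sample, but by very different amounts. Anxa1, Anxa3, Cav1 and S100a6 were left at between 3.22% and 24.2% of the WT mean on scaled TPM, whereas Anxa5, S100a10, Anxa6, Anxa2 and S100a11 were left at between 52.6% and 78.6%. Cav2, which was too low to test, stood at 11.4%. In none of the 10 genes did the C3G KO samples overlap the WT samples, on either scale. Among all tested genes, both C3G KO samples lay below all WT samples in 29.3% on scaled TPM and in 75.7% as deposited. All 9 genes that could be tested passed as lower in limma (adjusted p under 0.05) on scaled TPM, as deposited and after the length and GC correction. Among all genes 16.6% were lower and 14.1% higher on scaled TPM, 56.8% lower and 1.45% higher as deposited, and 14.2% lower and 16.7% higher after the correction. Across all genes tested, the log2 fold change went down with transcript length on scaled TPM (Spearman's rho = -0.313 across genes, which are not independent) and had a rho of 0.0283 after the correction. Anxa1 and Cav1 met the minimum of 1 TPM through the WT samples alone, and the other 7 reached it in both C3G KO samples too. Genes that meet it through WT alone are under 1 TPM in both KO samples, so as a group they lean towards lower in KO. The median log2 fold change of the 9 genes was -0.76, beside 0.0052 over all tested genes, and -1.32 beside -0.55 as deposited. RNA of a cell population cannot tell fewer expressing cells from less RNA in each cell.

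**Figure D1:**
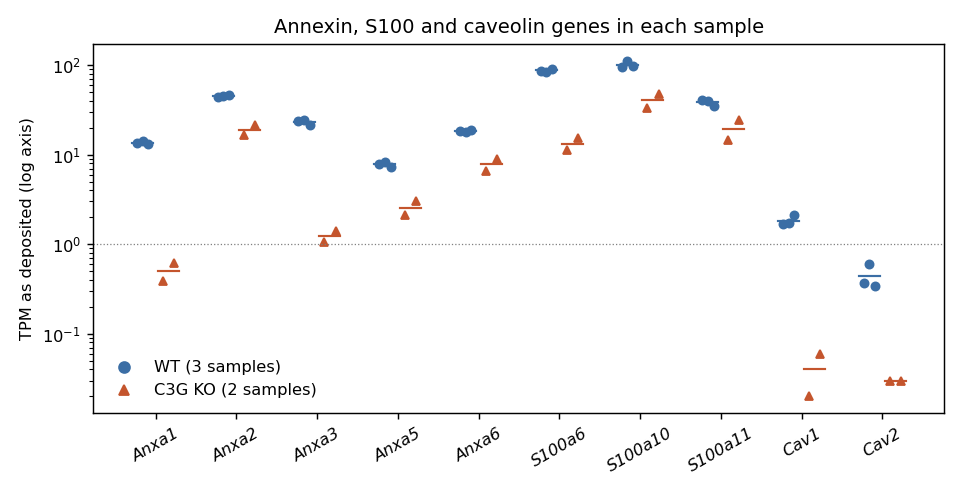
TPM as deposited (log axis) of the 10 genes in each of the 3 WT samples (circles) and 2 C3G KO samples (triangles), with short lines at the group means and a dotted line at the minimum of 1 TPM used for testing. The C3G KO samples lie below the WT samples in every gene, furthest below for Anxa1, Anxa3, Cav1 and Cav2.

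Among the annexins, Anxa1 and Anxa3 fell most. Anxa1 (ENSMUSG00000024659, chromosome 19 of GRCm38 from 20373428 to 20390944, minus strand) encodes a protein known for limiting inflammation and for binding formyl peptide receptors. It was at 13.4, 14.09 and 13 TPM in WT samples, against 0.39 and 0.62 TPM in C3G KO samples. Both KO samples were under 1 TPM, where all WT samples were at 13 or above. On scaled TPM the WT mean was 11.1 ± 0.946 (SD, n = 3) and the KO mean 0.657 ± 0.0382 (SD, n = 2), a 16.9-fold difference of means. The log2 fold change was -2.87 (standard error 0.084, limma adjusted p = 3.38e-05), and 12 of the 12518 genes had a lower one. It includes the pseudocount of 1, without which the log2 ratio of the scaled group means was -4.08.

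Anxa3 (ENSMUSG00000029484, chromosome 5 from 96793339 to 96845966, plus strand) encodes another membrane-binding annexin and ranked directly before Anxa1 on log2(TPM + 1). It was at 23.5, 24.29 and 21.52 TPM in WT samples, against 1.06 and 1.42 TPM in C3G KO samples. The lowest WT sample was 15.2-fold above the higher KO sample as deposited and 10.3-fold above it on scaled TPM. The log2 fold change was -2.92 (standard error 0.076, limma adjusted p = 2.42e-05).

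The other 3 annexins fell less, and on scaled TPM were left at 52.6% (Anxa5), 67.8% (Anxa2) and 68.0% (Anxa6) of the WT mean. Anxa2 (ENSMUSG00000032231, chromosome 9 from 69453620 to 69491795, plus strand), which binds membranes and actin, was at 43.8, 45.32 and 46.15 TPM in WT samples, against 16.67 and 21.35 TPM in C3G KO samples. Its log2 fold change was -0.54 on scaled TPM (standard error 0.12, limma adjusted p = 0.0188) and -1.21 as deposited (adjusted p = 7.61e-05). The groups did not overlap, but on scaled TPM the lowest WT sample, at 32.8, was only 1.22-fold above the higher KO sample, at 26.9. Anxa5 (ENSMUSG00000027712, chromosome 3 from 36448923 to 36475894, minus strand), whose protein is used to stain exposed phosphatidylserine on dying cells, was at 7.83, 8.25 and 7.25 TPM in WT samples, against 2.1 and 3.02 TPM in C3G KO samples. Its scaled log2 fold change was -0.76 (standard error 0.075, limma adjusted p = 0.0013). Anxa6 (ENSMUSG00000018340, chromosome 11 from 54979108 to 55033445, minus strand), an annexin with a doubled core, was at 18.29, 17.86 and 18.69 TPM in WT samples, against 6.54 and 9.03 TPM in C3G KO samples. Its scaled log2 fold change was -0.51 (standard error 0.098, limma adjusted p = 0.0121).

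The ratio of Anxa6 to Anxa2 overlapped between WT and C3G KO samples, whereas those of Anxa1 and Anxa3 to Anxa2 did not. A ratio of 2 genes within a sample does not depend on how samples are scaled. The ratio of Anxa6 to Anxa2 was between 0.394 and 0.418 in WT and 0.392 and 0.423 in C3G KO. The ratio of Anxa1 to Anxa2 was between 0.282 and 0.311 in WT and 0.0234 and 0.029 in KO, and that of Anxa3 to Anxa2 between 0.466 and 0.537 in WT and 0.0636 and 0.0665 in KO. These ratios were not tested.

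The other annexins moved in both directions. Of 7 further annexin genes, a list drawn from gene names, 4 were tested, and on scaled TPM 1 fell, 1 rose and 2 did not pass. Anxa4 averaged 7.8 ± 0.482 TPM (SD, n = 3) over WT samples and 3.81 ± 0.834 TPM (SD, n = 2) over KO samples, with a scaled log2 fold change of -0.30 (limma adjusted p = 0.0209). Anxa11 averaged 15.2 ± 1.51 TPM (SD, n = 3) over WT samples and 13.1 ± 3.89 TPM (SD, n = 2) over KO samples, and rose on scaled TPM with a log2 fold change of 0.43 (limma adjusted p = 0.00557). As deposited it was -0.22 (adjusted p = 0.426), so the direction of Anxa11 depends on the scaling. Anxa7, with a scaled log2 fold change of -0.0085 (limma adjusted p = 0.930), fell only as deposited (log2 fold change -0.65, adjusted p = 0.0244), and Anxa8 passed on neither scale. Anxa9, Anxa10 and Anxa13 stayed under 1 TPM in every sample.

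The makeup of the annexin RNA pool differed between WT and C3G KO samples, as described here without a test. As deposited, the 12 annexin genes summed to between 144 and 151 TPM in WT and to 49.3 and 68.7 TPM in KO. These sums are not scaled, and on that scale the median log2 fold change over all genes tested was -0.55. The percentages of the sum do not depend on how samples are scaled. Anxa1 made up between 8.88% and 9.47% of that sum in WT and 0.791% and 0.902% in KO, and Anxa3 between 14.9% and 16.3% in WT and 2.15% and 2.07% in KO. Anxa2 was the most abundant annexin in all 5 samples, with between 29.0% and 31.9% in WT and 33.8% and 31.1% in KO. Anxa11 went from between 9.77% and 11.2% in WT to 21.01% and 23.1% in KO, next after Anxa2.

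**Figure D2:**
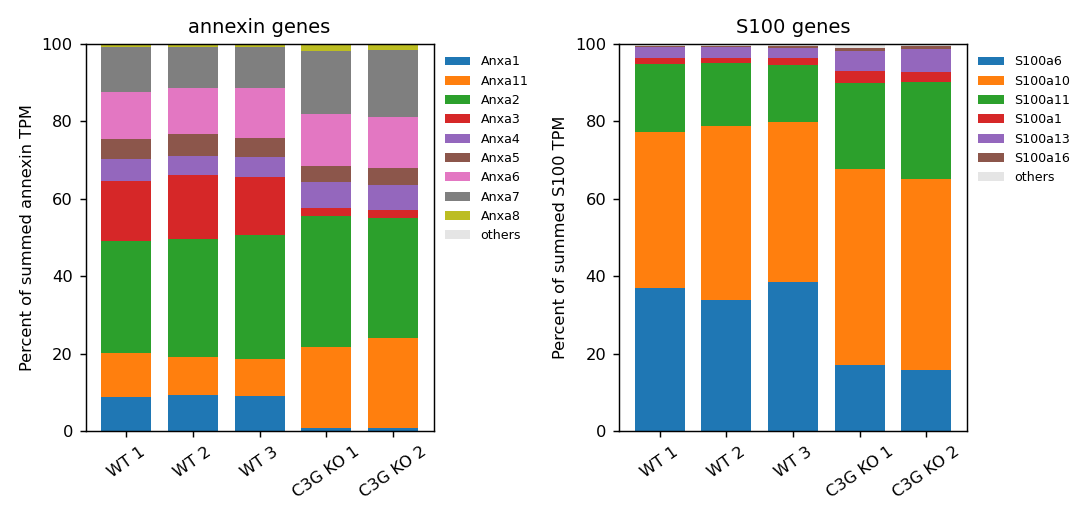
Stacked bars of the percent that each annexin gene (left) and each S100 gene (right) holds of the summed TPM of its family in each of the 5 samples, with genes under 1 TPM in every sample pooled as others. Anxa1, Anxa3 and S100a6 take a smaller part in both C3G KO samples, and Anxa11 a larger one.

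Of the S100 genes, S100a6 fell furthest, and S100a10, the partner of annexin A2, fell by about as much as Anxa2 on scaled TPM. After the length and GC correction the log2 fold changes were -0.82 for S100a10 and -0.57 for Anxa2. S100a6 (ENSMUSG00000001025, chromosome 3 from 90612882 to 90624181, plus strand), also called calcyclin, was at 87.06, 84.32 and 91.01 TPM in WT samples, against 11.25 and 15.27 TPM in C3G KO samples. The lowest WT sample was 5.52-fold above the higher KO sample as deposited. Its scaled log2 fold change was -1.98 (standard error 0.11, limma adjusted p = 0.000281), with 33 tested genes lower. S100a10 (ENSMUSG00000041959, chromosome 3 from 93555080 to 93564643, plus strand) was at 95.48, 111.96 and 97.21 TPM in WT samples, the highest level of the 10 genes in each WT sample, against 33.01 and 48.03 TPM in C3G KO samples. Its scaled log2 fold change was -0.64 (standard error 0.12, limma adjusted p = 0.0115). S100a11 (ENSMUSG00000027907, chromosome 3 from 93520488 to 93526287, plus strand), whose protein binds annexin A1, was at 41.11, 40.17 and 35.08 TPM in WT samples, against 14.45 and 24.19 TPM in C3G KO samples. It showed the smallest scaled log2 fold change of the 9 tested genes, -0.34 (standard error 0.081, limma adjusted p = 0.0249).

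The ratio of Anxa2 to S100a10, not corrected for length and GC content, differed by less than its spread between samples. In TPM it came to 0.459, 0.405 and 0.475 for WT, against 0.505 and 0.444 for C3G KO, and the groups overlap. On log2(TPM + 1) the ratio was -1.15 ± 0.12 (SD, n = 3) in WT and -1.04 ± 0.133 (SD, n = 2) in KO, a difference of 0.11 with p = 0.5 in an exact two-sided permutation test, in which 0.1 is the smallest p that 3 against 2 samples allow. By contrast, the ratio of S100a6 to S100a10 was between 0.753 and 0.936 in WT and 0.341 and 0.318 in KO, and that of S100a11 to S100a10 was between 0.359 and 0.431 in WT and 0.438 and 0.504 in KO. Against S100a10, S100a6 was lower and S100a11 slightly higher in both KO samples than in any WT sample, which was not tested.

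Of 14 further S100 genes 2 were tested, and none of these rose or fell on scaled TPM (0 at an unadjusted p under 0.05 from limma). S100a1 averaged 3.56 ± 0.177 TPM (SD, n = 3) over WT samples and 2.22 ± 0.311 TPM (SD, n = 2) over KO samples, with a scaled log2 fold change of 0.0097, and S100a13 averaged 6.65 ± 0.262 TPM (SD, n = 3) over WT samples and 4.59 ± 1.66 TPM (SD, n = 2) over KO samples, with 0.10. As deposited S100a1 fell (log2 fold change -0.50, limma adjusted p = 0.0381). S100a8, S100a9 and S100z were listed at 0 in all samples. S100a1 and S100a13 lie in the same gene cluster as S100a6, within 100 kb of it. The S100 genes between are S100a14, S100a16, S100a3, S100a2, S100a4 and S100a5, which were not tested. S100a16 reached 1.08 TPM in WT 3, and the others stayed under 1 TPM throughout. On scaled TPM both KO samples lay below all WT samples in S100a3 and S100a4, as in 29.3% of tested genes. In S100a14, S100a16, S100a2 and S100a5 the groups overlapped.

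**Figure D3:**
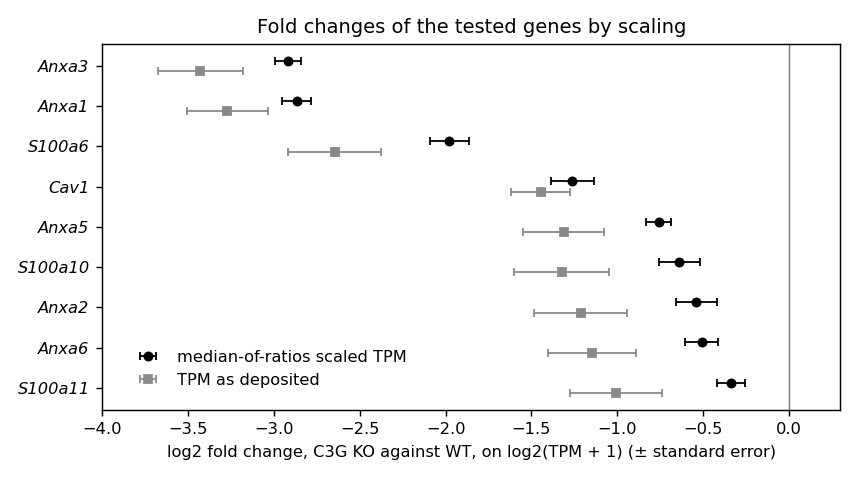
Log2 fold changes of the 9 tested genes in C3G KO against WT with their standard errors from limma, on scaled TPM (circles) and on TPM as deposited (squares). Every point lies below 0, with Anxa3, Anxa1 and S100a6 below -1.9 on both scales and S100a11 nearest to 0.

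The caveolins were low in WT cells and close to the limit of the table in C3G KO cells. Cav1 (ENSMUSG00000007655, chromosome 6 from 17306335 to 17341452, plus strand), the caveolin that caveolae need in most cells, was at 1.7, 1.71 and 2.11 TPM in WT samples, against 0.02 and 0.06 TPM in C3G KO samples. Its scaled log2 fold change was -1.26 (standard error 0.12, limma adjusted p = 0.00128), a scale on which a gene this low is understated. The ratio of the scaled group means was 31.03, but it is loose, since TPM are rounded to 2 decimals, and single WT and KO samples differed by between 19.2-fold and 59.1-fold. Cav2 (ENSMUSG00000000058, chromosome 6 from 17281185 to 17289115, plus strand), which joins caveolin-1 in hetero-oligomers, was at 0.37, 0.6 and 0.34 TPM in WT samples, against 0.03 and 0.03 TPM in C3G KO samples. It was below the minimum in every sample and was not tested. The KO samples of both genes lay below all WT samples, with WT levels of Cav1 between 2.85-fold and 6.21-fold those of Cav2. The log2 ratio of Cav1 to Cav2 on TPM + 1 was 0.98 ± 0.227 (SD, n = 3) in WT and 0.014 ± 0.0392 (SD, n = 2) in KO, with p = 0.1 in an exact permutation test, the smallest it allows. In KO this ratio rests on values of at most 0.06 TPM and is set by the pseudocount of 1.

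Of the other caveola genes, 10 of 14 symbols were found, the rest being older names of cavins, and 6 were tested, of which 3 fell on scaled TPM (Cavin1, Pacsin3 and Ehd1), none rose (1 at an unadjusted p under 0.05 from limma) and 3 did not pass. Cavin1, which encodes the cavin that assembles the caveola coat, averaged 17.1 ± 2.52 TPM (SD, n = 3) over WT samples and 3.04 ± 0.926 TPM (SD, n = 2) over KO samples, with a scaled log2 fold change of -1.60 (limma adjusted p = 0.000144). Pacsin3, a membrane-bending F-BAR protein gene, had a scaled log2 fold change of -0.36 (limma adjusted p = 0.0124). Corrected for length and GC content, Ehd1 did not pass (adjusted p = 0.644). As deposited 5 of the 6 fell, beside 56.8% of all genes, and after the correction 2 of the 6, beside 14.2%. On scaled TPM 16.6% of all genes were lower. The median of the list was -0.31 on scaled TPM.

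Plasminogen system genes, and membrane repair and annexin partner genes, were read from lists drawn up from general knowledge. Of 7 plasminogen system genes, whose proteases are bound at the cell surface partly through S100A10, 3 were tested, and 2 fell, none rose (0 at an unadjusted p under 0.05 from limma) and 1 did not pass on scaled TPM. Plaur, the urokinase receptor gene, averaged 26.3 ± 1.51 TPM (SD, n = 3) over WT samples and 4.505 ± 0.87 TPM (SD, n = 2) over KO samples, with a scaled log2 fold change of -1.70 (limma adjusted p = 0.00012). Serpine2, a serine protease inhibitor gene, had a scaled log2 fold change of -0.48 (limma adjusted p = 0.0120). Plat and Plau, plasminogen activator genes, were below the minimum, with WT means of 0.87 and 0.417 TPM and KO means of 0.09 and 0.045 TPM. Plg and Serpinb2 had at most 0.03 TPM in any sample. Of 16 membrane repair and annexin partner genes 14 were tested, and 8 fell, none rose (0 at an unadjusted p under 0.05 from limma) and 6 did not pass. As deposited 13 of the 14 and all 3 plasminogen genes fell, beside the 56.8% of all genes, and on scaled TPM the share of all genes was 16.6%. Corrected for length and GC content, 7 of the 14 fell, beside 14.2% of all genes. Dysf, which met the minimum through WT samples alone, and Capn1 no longer passed (limma adjusted p = 0.482 and 0.0785). Pdcd6 passed only after the correction among these 2 scales (log2 fold change -0.21, limma adjusted p = 0.0414). Capn2, the gene of a calcium-activated protease, averaged 12.0 ± 1.25 TPM (SD, n = 3) over WT samples and 1.70 ± 0.629 TPM (SD, n = 2) over KO samples, with a scaled log2 fold change of -1.77 (limma adjusted p = 0.00012). Ahnak, which encodes a giant scaffold bound by the annexin A2 complex, averaged 69.2 ± 5.78 TPM (SD, n = 3) over WT samples and 16.1 ± 4.13 TPM (SD, n = 2) over KO samples, with -1.39 (limma adjusted p = 0.000135). Cacybp, the gene of calcyclin-binding protein, named for the product of S100a6, had a scaled log2 fold change of 0.10 (limma adjusted p = 0.376). The medians of the 2 lists were -0.48 and -0.39 on scaled TPM.

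**Figure D4:**
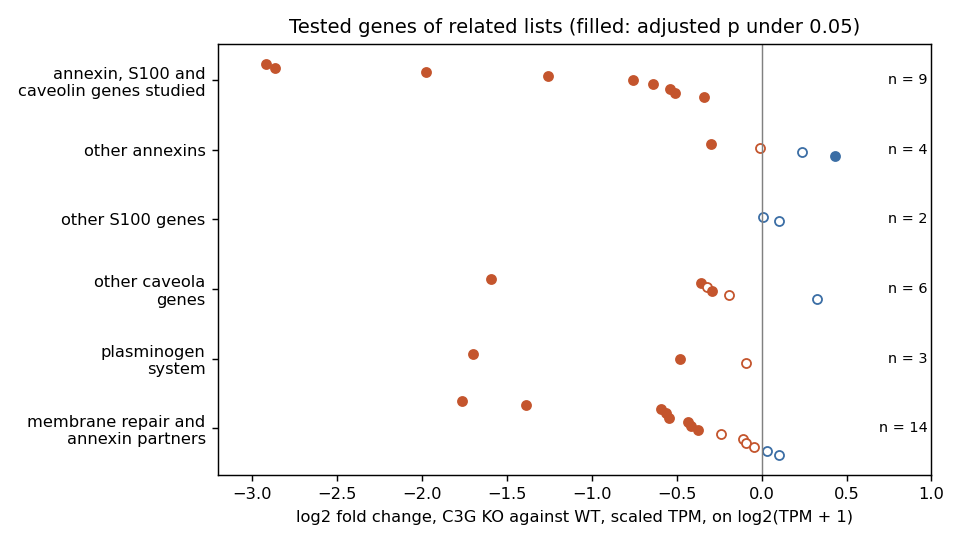
Scaled log2 fold changes in C3G KO against WT of the tested genes of 6 lists, 1 point a gene (orange below 0, blue above), filled where the adjusted p was under 0.05 from limma. The genes described here reach lowest, the other annexins and other S100 genes lie on both sides of 0 or at it, and Cavin1, Plaur and Capn2 are the lowest of the remaining lists.

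A single protein-coding transcript held most of the RNA of Anxa2, Anxa5, S100a10 and S100a11, such as Anxa2-201, with 43.3 of 45.1 TPM in WT. Anxa6 was split between Anxa6-201, with 11.15 TPM in WT and 4.56 TPM in C3G KO on average, and Anxa6-202, which has 1 more exon and 18 more bases, with 6.03 and 2.995 TPM. The share of Anxa6-202 was between 26.9% and 41.5% in WT and 33.0% and 42.4% in KO, so the groups overlap. S100a6 was split between S100a6-201, with between 48.1% and 62.7% in WT and 68.2% and 50.8% in KO, and S100a6-203. Both were lower in KO, from 48.4 ± 7.86 to 7.72 ± 0.0636 TPM and from 37.4 ± 6.47 to 5.54 ± 2.79 TPM (SD, n = 3 and n = 2). How reads shared by transcripts of 1 gene were divided was decided by the authors' quantification, and these shares are less certain than the sums.

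The genes sit at 8 separate places in the genome. S100a11 and S100a10 are neighbours on chromosome 3, 28.8 kb apart, and Cav2 and Cav1 are neighbours on chromosome 6, 17.2 kb apart, whereas the annexins are each on their own. Within 300 kb of the caveolins, Tes had a scaled log2 fold change of -0.79 (limma adjusted p = 0.000709), while those of Met and Capza2, on the other side, were -0.24 (0.0717) and -0.074 (0.494).

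RefSeq promoter windows, from 250 bases before to 50 bases after a start site, were given for 7 of the 10 genes, 8 windows in all, on GRCm38.p6. They were searched on both strands for 4 motifs. The AP-1 motif TGANTCA was found in 3 of the 8 windows, those of Anxa2, S100a11 and Cav2, and in 7.81% of all 32851 windows. The TEAD motif GGAATG was found in the Anxa1 window and in 14.7% of all, the SRF CArG box in the Anxa5 window and in 1.63% of all, and the E-box CANNTG in 7 of the 8 and in 72.3% of all. The windows of the 3 genes with an AP-1 match are shown 5' to 3' on the coding strand, with that of Anxa1, which has none, for comparison. Capitals mark the AP-1 matches, which start 95 bases before the start site in Anxa2, 92 bases before it in Cav2, and 136 and 38 bases before it in S100a11, and in Anxa1 the TEAD match, read on the other strand, 236 bases before the start site.
Anxa2, chr9:69453433-69453732, plus strand: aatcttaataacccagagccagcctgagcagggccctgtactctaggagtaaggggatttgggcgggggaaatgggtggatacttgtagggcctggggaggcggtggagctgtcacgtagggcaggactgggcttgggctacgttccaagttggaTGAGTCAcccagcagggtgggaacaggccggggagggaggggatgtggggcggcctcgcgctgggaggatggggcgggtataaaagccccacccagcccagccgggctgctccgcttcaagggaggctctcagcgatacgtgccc
S100a11, chr3:93520246-93520545, plus strand: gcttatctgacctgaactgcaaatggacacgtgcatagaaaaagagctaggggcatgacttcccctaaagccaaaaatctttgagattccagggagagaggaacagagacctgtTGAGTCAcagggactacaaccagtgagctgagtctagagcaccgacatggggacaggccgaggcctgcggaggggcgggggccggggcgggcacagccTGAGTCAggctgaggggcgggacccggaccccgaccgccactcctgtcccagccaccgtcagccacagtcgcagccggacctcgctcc
Cav2, chr6:17280935-17281234, plus strand: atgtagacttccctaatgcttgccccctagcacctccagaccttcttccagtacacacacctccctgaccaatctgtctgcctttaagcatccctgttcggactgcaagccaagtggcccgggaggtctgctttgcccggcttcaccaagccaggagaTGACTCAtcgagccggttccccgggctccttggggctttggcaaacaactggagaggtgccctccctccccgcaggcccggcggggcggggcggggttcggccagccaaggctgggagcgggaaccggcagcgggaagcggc
Anxa1, chr19:20390622-20390921, minus strand: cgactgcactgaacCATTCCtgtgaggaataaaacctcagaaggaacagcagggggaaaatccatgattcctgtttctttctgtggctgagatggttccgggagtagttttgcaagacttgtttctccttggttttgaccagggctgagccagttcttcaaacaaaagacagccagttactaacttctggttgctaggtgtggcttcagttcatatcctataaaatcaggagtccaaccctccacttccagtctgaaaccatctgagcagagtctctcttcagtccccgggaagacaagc
The scaled log2 fold changes of these genes were -0.54 for Anxa2, -0.34 for S100a11 and -2.87 for Anxa1, and Cav2 was not tested. On scaled TPM Cav2, Anxa2 and S100a11 were left at 11.4%, 67.8% and 78.6% of the WT mean. Cav1, Anxa1, S100a6 and Anxa5, whose windows have no AP-1 match, were left at 3.22%, 5.91%, 24.2% and 52.6%. A match is a run of letters and does not show that a factor binds there.

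Among all genes tested, Anxa3 and Anxa1 lay at the 12th and 13th lowest scaled log2 fold change, S100a6 at the 34th and Cav1 at the 131st. Their order depends on the pseudocount of 1 used here. With a pseudocount of 0.1 the log2 fold changes were -3.89 for Anxa1, -3.46 for Anxa3, -3.44 for Cav1 and -2.03 for S100a6. With a pseudocount of 5 they were -1.51, -1.85, -0.37 and -1.77 in the same order. Anxa5, S100a10, Anxa2, Anxa6 and S100a11 had between 4.10% and 14.9% of genes below them. With samples left out in turn, the direction of every one of the 9 tested genes was kept. Without C3G KO replicate 2, 6 of the 9 passed, and Anxa2, Anxa6 and S100a10 did not (limma adjusted p = 0.0970, 0.0661 and 0.0596). S100a10 also did not pass without C3G KO replicate 1 (limma adjusted p = 0.0554) nor Anxa2 without WT replicate 2 (0.0599). S100a11 did not pass without WT replicate 2 (0.102), WT replicate 3 (0.0539) or C3G KO replicate 1 (0.0987). Anxa1, Anxa3, Anxa5, S100a6 and Cav1 passed each time.

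**Figure D5:**
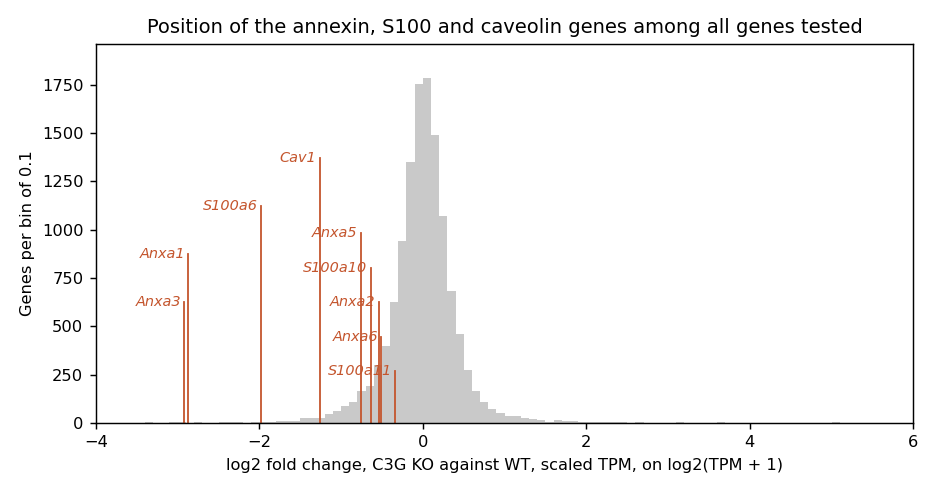
Number of genes per bin of 0.1 of the scaled log2 fold change in C3G KO against WT over the 12518 genes tested (grey), with lines at the 9 tested annexin, S100 and caveolin genes, whose heights only keep the names apart. Anxa3, Anxa1, S100a6 and Cav1 lie in the thin lower tail and the other 5 on the lower flank of the main peak.

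Markers of cell types other than ES cells moved too, beside 16.6% of all genes lower and 14.1% higher on scaled TPM. Of 8 trophectoderm markers 5 were tested, and on scaled TPM Krt7, Cdx2 and Tfap2c fell, none rose (0 at an unadjusted p under 0.05 from limma) and 2 did not pass. Krt7 and Cdx2 met the minimum of 1 TPM through the WT samples alone, as Anxa1 and Cav1 did. The summed level of the 8 was between 18.0 and 19.8 scaled TPM in WT and 10.99 and 12.03 in C3G KO. Of 10 fibroblast markers 3 were tested and fell (Col1a1, Twist1 and Thy1, of which Twist1 did not pass after the length and GC correction). Col1a1 and Twist1 also met the minimum through WT samples alone. For the 10 fibroblast markers the sum was between 4.59 and 5.54 scaled TPM in WT and 2.004 and 2.15 in KO. Lum and Prrx1 were at or near 0 in all samples, with at most 0.02 TPM in WT. Col1a2, Col3a1, Dcn, Postn and Pdgfrb, also not tested, averaged 0.313, 0.63, 0.117, 0.117 and 0.153 TPM in WT samples. In KO samples these genes averaged 0.01, 0.045, 0.02, 0.005 and 0.075 TPM. Of 12 primitive endoderm markers 5 were tested, of which Cubn, Lama1 and Dab2 rose and Sparc fell on scaled TPM. As deposited Cubn rose, and Lama1 and Dab2 did not pass (limma adjusted p = 0.642 and 0.325). Cubn, at 1, 0.89 and 0.92 TPM in WT samples and 2 and 3.2 TPM in KO samples, met the minimum in 2 samples only through KO. The sum of the 12 was between 47.5 and 50.5 scaled TPM in WT and 44.1 and 46.5 in KO, of which Sparc averaged 31.7 in WT and 18.3 in KO. Gata6, Sox17, Pdgfra and Amn, which were not tested, averaged between 0.311 and 0.385 scaled TPM in WT and between 0.903 and 1.43 in KO. Gata4, Sox7 and Foxa2, also not tested, averaged 0.707, 0.238 and 0.272 scaled TPM in WT and 0.933, 0.245 and 0.287 in KO. As deposited the means of Gata4, Sox7 and Foxa2 were lower in KO. By qPCR the study found Gata6 and Sox17 repressed in the KO cells. Of 8 neural and mesoderm markers 4 were tested, of which Nes and T fell and Tubb3 rose on scaled TPM, and as deposited Tubb3 did not pass (log2 fold change 0.28, limma adjusted p = 0.315). The sum of the 8 was between 23.0 and 25.1 scaled TPM in WT and 27.6 and 28.8 in KO, of which Tubb3 averaged 10.4 in WT and 20.8 in KO. The part that such cells have in the fall of the annexin, S100 and caveolin genes was not tested.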

How the data were processed

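RNA-seq reads of 3 WT and 2 C3G KO samples were checked and aligned to GRCm38 by the authors, and the submitters' processing notes name bcl2fastq 2.20, FastQC 0.11.7, STAR 2.5.1b and RSEM 1.2.31. The authors deposited TPM, rounded to 2 decimals, for 142647 Ensembl transcripts. They sum to between 999998 and 1000001 per sample and keep no depth, so the number of samples limits the precision. Here 141524 transcripts were matched to GENCODE M21 and TPM summed by symbol. Genes with at least 1 TPM in at least 2 samples were divided by median-of-ratios factors, the scaling of the study's own test (DESeq2, which needs counts and was not run), and fitted with limma 3.58.1 (R 4.3.3) on log2(TPM + 1), with the prior variance allowed to follow expression level. The prior degrees of freedom were 3.11 on scaled TPM and infinite as deposited, where the spread of each gene by itself does not enter p. Named genes are the 10 genes, from each list the genes past the threshold with the 2 largest changes each way, neighbours, and genes of nearest pattern. Ehd1, Anxa7, Anxa8, S100a1, S100a13, Cacybp, Plat, Tfap2c, Thy1, Dab2, Esrrb, Tfcp2l1, Dysf, Capn1 and Pdcd6 were named after their values were seen. So were the genes outside the 10 given as below the minimum or as not tested. The genes and lists were chosen with earlier results of these data known, and 1 gene of a list is not reported here and was left out of that list's counts. Alternatives were TPM as deposited, quantile normalization, scaling to protein-coding TPM, another pseudocount (0.1 or 5), testing all genes above 0, a 5 TPM minimum, no trend, each sample left out, a replicate block, a length and GC correction (loess, span 0.5), and the last 2 together. Ratios without a pseudocount were added after seeing the data. The procedure was tested on simulated data. Figures were made with Python 3.11.15 and matplotlib 3.10.9.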

Additional observations from a re-analysis of the deposited data

How the results depend on the processing

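The 9 tested genes kept their direction under every alternative in which they were tested (Cav1 was below the filter of 5 TPM). Of their tested values under alternatives, 133 still passed and 10 no longer did, which were values of Anxa2, Anxa6, S100a10 and S100a11. Apart from samples left out, these were S100a11 without a filter (log2 fold change -0.34, adjusted p = 0.0504 from limma), where more genes were tested, and Anxa6 with the replicate block and the length and GC correction together (-0.33, adjusted p = 0.0583), for which the cause was not tested. With samples left out in turn, between 6 and 9 of the genes were lower and 0 were higher. Over all genes, 2083 were lower and 1760 higher. These counts were 7109 and 181 with TPM as deposited, 3732 and 707 with scaling to protein-coding TPM, and 1348 and 1122 with a filter of 5 TPM, which tests fewer genes, and with samples left out between 1338 and 1845 lower and between 891 and 1536 higher. Counts moved by over 1.5 times without WT replicate 2 (1338 and 891) and C3G KO replicate 1 (1373 and 964), and the count of higher genes without C3G KO replicate 2 (995). The share of higher calls therefore depends on the scaling, which is also why Anxa11 and Anxa7 differ between scales.
The replicate numbers are shared by WT and C3G KO samples in the labels, but nothing says that they mark a shared day or batch, the library name of C3G KO replicate 2 carries the number 3, and with 2 KO samples, whose deviations mirror each other, their correlation could not settle it. With the replicate block, 9 of the genes were lower, with 1816 lower and 1489 higher over all genes. With the block and the length and GC correction together, 8 of the genes were lower and 1338 genes in all. The length and GC correction alone kept 9 and moved the log2 fold change of S100a11 from -0.34 to -0.59 and that of S100a10 from -0.64 to -0.82. The change in the log2 ratio of Cav1 to Cav2 was -0.97, between -1.08 and -0.86 with samples left out, and -1.79 with a pseudocount of 0.1. Without a pseudocount, log2 ratios of the scaled group means, which have no test, ran from -0.35 (S100a11) to -4.96 (Cav1). Without a C3G KO sample the remaining one is taken to vary as the WT samples do.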

Other observations

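The genes outside the set whose pattern over the 5 samples was nearest to that of Anxa2, by Euclidean distance of centred log2(scaled TPM + 1), were Rasl11a, Iah1 and Dusp6, at distances of 0.061, 0.101 and 0.102. Dusp6, which encodes a phosphatase of ERK, was at 35.2, 37.17 and 37.04 TPM in WT samples, against 12.75 and 15.96 TPM in C3G KO samples. Its scaled log2 fold change was -0.63 (standard error 0.12, limma adjusted p = 0.0121). Those of Rasl11a and Iah1 were -0.57 and -0.60 (limma adjusted p = 0.0230 and 0.0136). Nearest to Cav1 were Psme2, Csrp1 and Rdh10, at distances of 0.131, 0.137 and 0.149. Csrp1, an actin-associated LIM protein gene, was at 35.79, 37.53 and 36.87 TPM in WT samples, against 7.71 and 10.92 TPM in C3G KO samples, with a scaled log2 fold change of -1.24 (standard error 0.10, limma adjusted p = 0.000653). Psme2 and Rdh10 had scaled log2 fold changes of -1.28 and -1.18 (limma adjusted p = 0.000934 and 0.00056). These distances include the pseudocount of 1, with which the log2 fold change of Cav1 is -1.26, whereas the log2 ratio of its scaled group means is -4.96 without it.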
